A study of Homo sapiens with 28 samples.

Results

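The genes described here are 9 B-lineage genes of the mouse, taken by name from 21631 protein-coding genes on chromosomes 1 to 19 and X. They are the transcription regulators Pax5, Ebf1 and Pou2af1, the surface and receptor genes Cd79a, Cd79b, Vpreb1, Vpreb3 and Igll1, and the adaptor gene Blnk. For each gene, the measured value was the part of its window covered by peaks of H3K27ac or H3K27me3 in each mouse. The window is the gene's interval plus 5 kb on either side. H3K27ac is an acetylation of histone H3 found at active promoters and enhancers. H3K27me3 is the trimethylation of the same residue, written by the Polycomb enzymes EZH2 and EZH1 at silenced genes.

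Commitment to the B lineage is set up by a small circuit of transcription factors. Ebf1 and Pax5 switch on the genes of the pre-B-cell receptor and hold the lineage in place. The surrogate light chain proteins encoded by Vpreb1 and Igll1 pair with the first immunoglobulin heavy chain at the pre-B stage, and the signalling chains encoded by Cd79a and Cd79b carry its signal inward to adaptors such as Blnk. In cells that do not follow this lineage, developmental regulators are typical Polycomb targets, while many lineage effector genes are silent without that mark.

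The samples were chromatin immunoprecipitations (ChIP-seq) from bone marrow of 8 C57BL/6 mice, with both marks measured in each mouse, which gives 16 libraries out of the 28 of the series. The 3 WT mice, WT1 to WT3, were homozygous for floxed Ezh2 and floxed Runx1 (fl/fl), wild type at Rag1 (+/+) and wild type at Flt3 (+/+), and so carried no Cre. The 5 DKOITD mice, labelled DKOITD48, DKOITD52, DKOITD53e, DKOITD83 and DKOITD185, carried the same floxed alleles of both genes together with a Cre at 1 Rag1 allele (Cre/+) and 1 Flt3 allele with an internal tandem duplication (ITD/+). Rag1 is expressed in early lymphoid progenitors, those of the B lineage included, and the ITD is an activating mutation of a cytokine receptor. The series title concerns leukaemia that starts in early thymic progenitors. Ages and sexes are not given in the sources used here.

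Cell preparation went with genotype. For WT mice, marrow cells carrying Kit were first enriched with CD117 microbeads, whereas DKOITD marrow was taken as a whole. The number of cells per sample was the same. Genotype and preparation therefore cannot be told apart in any comparison below. In bulk marrow, fewer B-lineage cells and less mark per cell cannot be told apart either. The p-values measure the spread between the mice.

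The H3K27ac libraries held 6515614 to 7072997 fragments in WT and 9435546 to 11458360 in DKOITD mice, so the DKOITD libraries were the deeper ones. The H3K27me3 libraries held 2766339 to 3994483 fragments in WT and 3343831 to 6411696 in DKOITD mice. The length of genome under peaks was not ordered by depth: for H3K27ac it was 16.8 to 29.7 Mb in WT and 7.03 to 23.8 Mb in DKOITD mice, and for H3K27me3 it was 13.8 to 27.3 Mb and 3.17 to 40.5 Mb. DKOITD48, DKOITD53e and DKOITD83 stood apart with short territories of both marks, at most 13.1 Mb of H3K27ac and 5.24 Mb of H3K27me3. DKOITD185 had the longest DKOITD territory of both. A gene counted as marked in a mouse if at least 200 bp of the window lay under peaks. By that rule H3K27ac marked 49.8 to 55.3% of all genes in WT and 42.1 to 55.6% in DKOITD mice, and H3K27me3 marked 22.1 to 29.9% and 6.90 to 29.8%. The engineered genes Ezh2 and Runx1 had H3K27ac in all 8 mice and H3K27me3 in none. Rag1 had neither mark in any mouse. Flt3 had H3K27ac in all 8 mice, and H3K27me3 in every WT mouse but only 1 DKOITD mouse. Peak presence is no check of the genotype labels.

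H3K27me3 lay over 2 of the 3 regulators, Pax5 and Ebf1, in all 8 mice, a state held by 6.02% of all genes. It lay over neither the regulator Pou2af1 in any mouse nor any of the 5 surface and receptor genes, as at 61.1% of all genes. H3K27ac lay mainly in the windows of Vpreb1, Igll1 and Cd79a, which for Vpreb1 and Cd79a include peaks near neighbouring genes. Of the 9 genes, 8 could be tested for H3K27ac. All 8 had a lower mean in DKOITD mice, which was also the direction of the median over all genes tested (given below). Ebf1 and Pou2af1 met the minimum of 2 mice with coverage through WT mice alone. Vpreb1 alone passed the test across all genes, where 3.86% of 12552 genes were called lower and 0.359% higher in DKOITD mice (limma with Benjamini-Hochberg adjustment over all genes, threshold 0.05). Those shares moved with the scaling and the mice: 484 genes were lower and 45 higher as measured, 619 and 324 after centring each library on its mean over all genes, and 32 and 287 without DKOITD48, DKOITD53e and DKOITD83. Before adjustment, p was under 0.05 for 3 of the 8 genes (Vpreb1, Igll1 and Pou2af1), all lower in DKOITD mice, beside 20.7% of all genes lower and 2.08% higher. The median DKOITD minus WT difference of the 8 tested genes was -3.67 percentage points, beside -0.931 points for all 12552 genes tested. Ebf1, Vpreb1 and Igll1 had every WT mouse above every DKOITD mouse for H3K27ac, which is 3 of 8 genes beside 14.8% of all genes tested. These 3 are not independent cases, because Vpreb1 and Igll1 share part of their windows. Ebf1 was tested through its WT coverage alone, so the 2 shares cannot be read as an excess. For H3K27me3, only Pax5 and Ebf1 had coverage in enough mice to be tested, and neither was called. limma called 0.0% of 6757 genes for H3K27me3 in either direction. Before adjustment, p was under 0.05 for 578 genes with lower values in DKOITD mice (8.55%) and for 6 with higher values (0.0888%), and for neither Pax5 nor Ebf1.

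**Figure D1:**
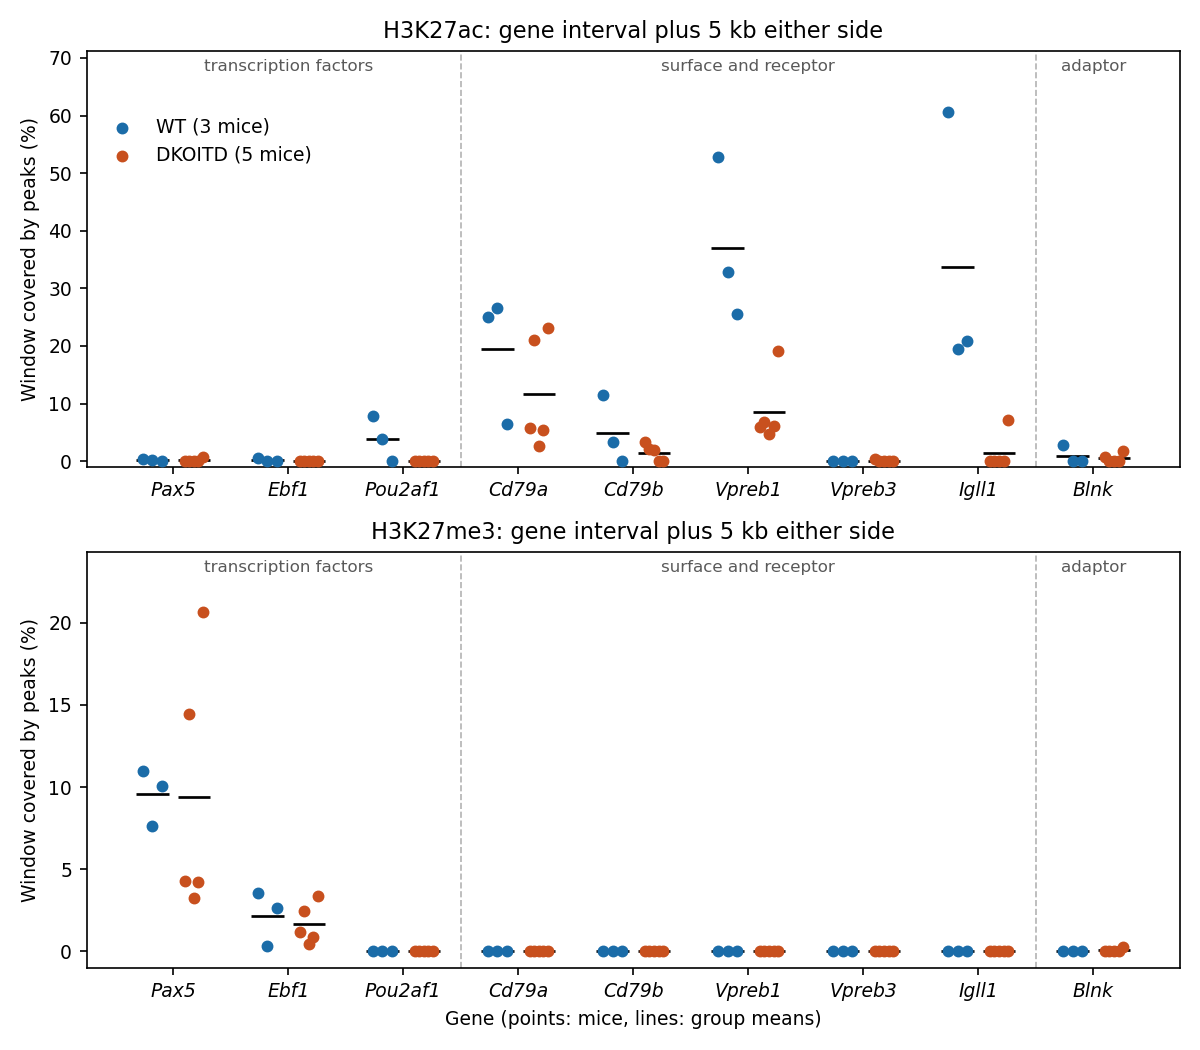
Percent of each gene's window (gene plus 5 kb either side) covered by H3K27ac peaks (upper panel) and H3K27me3 peaks (lower panel). Each point is 1 mouse, WT or DKOITD, and the short line is the mean of the genotype. The H3K27ac points of Vpreb1 and Igll1 lie higher in the 3 WT mice than in any DKOITD mouse, and H3K27me3 lies over Pax5 and Ebf1 in both genotypes, with 1 weak DKOITD point at Blnk.

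Pax5 encodes the paired-box factor that fixes B-cell identity. In mm10 its gene spans chromosome 4, 44524748 to 44710694, a length of 186 kb. H3K27me3 covered 10.98%, 7.62% and 10.1% of the window in WT1, WT2 and WT3. In DKOITD48, DKOITD52, DKOITD53e, DKOITD83 and DKOITD185 it covered 4.32%, 14.4%, 3.27%, 4.24% and 20.7%. The WT values lie between the lowest and the highest DKOITD values, and the 3 DKOITD mice of short territory are the 3 low ones. The WT mean was 9.56% ± 1.74 (SD, n = 3) and the DKOITD mean 9.39% ± 7.79 (SD, n = 5). Their difference of -0.17 percentage points had a standard error of 4.95 (limma adjusted p = 0.999, two-sided exact permutation p = 0.964). A difference of several points in either direction would be within that error. Without the 3 mice of short territory the difference was 8.0 points with DKOITD higher (limma adjusted p = 0.223).

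The H3K27me3 of Pax5 was concentrated at the gene end of higher coordinate. The stretch from 10 kb inside to 5 kb outside that end held 66.0%, 77.3% and 71.3% of the covered bases in the WT mice. In the DKOITD mice it held 100%, 49.2%, 100%, 94.4% and 33.6%, in the order given above. All 8 mice shared 2 covered segments there: chromosome 4, 44701489 to 44704677 (3189 bp, inside Pax5 and within 1 kb of the locus 5730488B01Rik) and 44711233 to 44714395 (3163 bp, in the flank, 0.539 kb beyond the gene end). In WT1 and WT3 a single peak of 14.4 and 14.48 kb ran over both segments, and in the other 6 mice they lay in separate peaks. Altogether 49.0 kb of the window was covered in at least 1 mouse, of which 21.6 kb was covered in 1 mouse only.

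H3K27ac at Pax5 was sparse: 678 bp in WT1, 362 bp in WT2, none in WT3, 1312 bp in DKOITD185 and none in the other 4 DKOITD mice. The WT1 and WT2 peaks sat at the higher-coordinate end, and all of their bases were also under an H3K27me3 peak of the same mouse. These are the only bases of the 9 genes where both marks were called in the same mouse. The 2 DKOITD185 peaks began 40.6 and 147.7 kb from the lower-coordinate end, away from the WT positions. The difference in mean coverage was -0.04 points (limma adjusted p = 0.897, exact permutation p = 0.929). Its sign turned with the gene interval taken alone, without WT1, and without the 3 mice of short territory.

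Ebf1 encodes the early B-cell factor, which acts before and together with Pax5. Its gene spans chromosome 11, 44618100 to 45008096, or 390 kb, with no other gene of the table within 1 kb of its window. H3K27me3 covered 14.2 kb, 1.39 kb and 10.6 kb in WT1, WT2 and WT3. It covered 4.84 kb, 9.80 kb, 1.71 kb, 3.42 kb and 13.4 kb in DKOITD48, DKOITD52, DKOITD53e, DKOITD83 and DKOITD185. The genotypes overlap over nearly their whole range, and WT2 is the lowest of all 8 mice. In percent of the window, the means were 2.19 ± 1.66 (SD, n = 3) and 1.66 ± 1.21 (SD, n = 5). The difference of -0.53 points had a standard error of 1.18 (limma adjusted p = 0.927, exact permutation p = 0.643), and its sign turned without WT1 or without the 3 mice of short territory.

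Most of this H3K27me3 lay at the lower-coordinate end of Ebf1, from 5 kb outside to 10 kb inside the gene: 67.5%, 100% and 62.0% of covered bases in WT mice and 75.8 to 100% in DKOITD mice. A segment of 243 bp, chromosome 11, 44618366 to 44618608, was covered in all 8 mice and starts 0.266 kb inside the gene. The longest peak over it or beside it varied from 1.71 kb in DKOITD53e to 15.4 kb in DKOITD185 (the latter reaches beyond the window). H3K27ac was called at Ebf1 in every WT mouse and in no DKOITD mouse, a pattern seen at 0.606% of all genes. The WT peaks were short, at 2011 bp in WT1, 418 bp in WT2 and 292 bp in WT3, and no base was shared by any 2 of them. They lay deep inside the gene, 331, 190.4 and 191.0 kb from its lower-coordinate end. The mean was 0.227% ± 0.240 (SD, n = 3) in WT against 0 in every DKOITD mouse. The difference did not pass the test across genes (limma adjusted p = 0.297), and its exact permutation p of 0.0357 is the smallest that 3 against 5 mice can give.

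**Figure D2:**
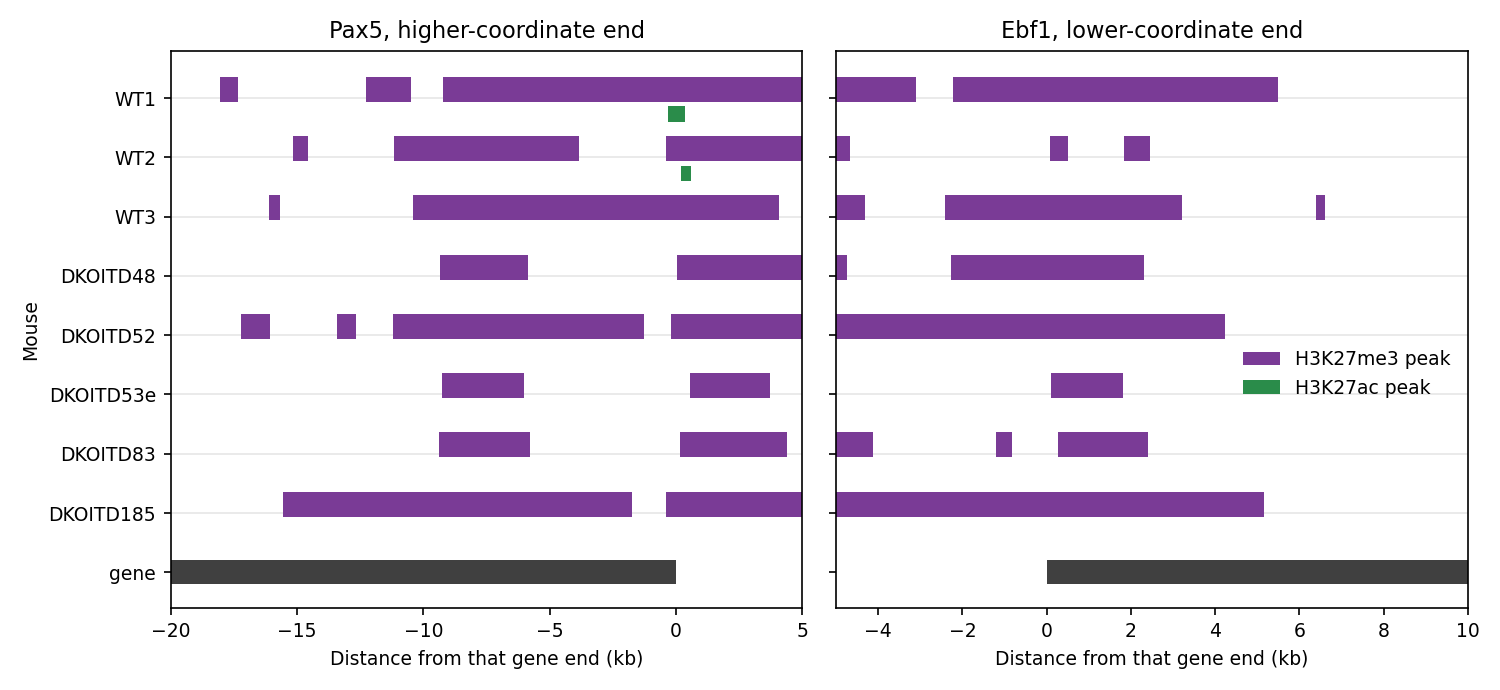
Peaks in each mouse around the higher-coordinate end of Pax5 (left) and the lower-coordinate end of Ebf1 (right), drawn by distance in kb from that gene end. Purple bars are H3K27me3 peaks, green bars H3K27ac peaks and the dark bar the gene. In WT1 and WT3 1 peak runs across the Pax5 end, and in the other 6 mice the H3K27me3 there is in separate peaks. The 2 short H3K27ac peaks at Pax5, in WT1 and WT2, lie within H3K27me3.

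Pou2af1 encodes the coactivator OBF-1, which works with octamer-binding factors at immunoglobulin genes. Its gene spans chromosome 9, 51213690 to 51240079. Unlike the other regulators it had no H3K27me3 in any mouse. H3K27ac covered 2.87 kb in WT1 and 1.39 kb in WT2, in both cases across the lower-coordinate end of the gene, and none in WT3 or in any DKOITD mouse. With 1 WT mouse at 0 the genotypes overlap. The mean was 3.90% ± 3.94 (SD, n = 3) of the window in WT and 0 in every DKOITD mouse (limma adjusted p = 0.154, exact permutation p = 0.214). Pou2af1 met the minimum of 2 mice with coverage through WT mice alone. Leaving out WT3, the only WT mouse at 0, brought the limma adjusted p to 0.0232. That fit removes the WT mouse that overlaps the DKOITD mice, so its p-value cannot count as support. Without WT1 or WT2 the gene had coverage in too few mice to be tested.

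Vpreb1 and Igll1 encode the 2 parts of the surrogate light chain, which stands in for the immunoglobulin light chain before that gene is rearranged. They are neighbours: Igll1 spans chromosome 16, 16860671 to 16863985, Vpreb1 spans 16868401 to 16869255, and 4.42 kb separate them. Their windows share 5.58 kb, so their values are not independent. Another gene, the topoisomerase gene Top3b, lies 1.47 kb beyond Vpreb1 and inside its window.

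Vpreb1 had H3K27ac over 52.8%, 32.8% and 25.6% of its window in WT1, WT2 and WT3. The coverage was 5.90%, 6.79%, 4.78%, 6.08% and 19.1% in DKOITD48, DKOITD52, DKOITD53e, DKOITD83 and DKOITD185. Every WT value is above every DKOITD value, and DKOITD185 is apart from the other 4 DKOITD mice. Means were 37.1% ± 14.1 (SD, n = 3) for WT and 8.53% ± 5.94 (SD, n = 5) for DKOITD, a difference of -28.55 points with a standard error of 6.25 (limma adjusted p = 0.0431, exact permutation p = 0.0357). Coverage over Vpreb1 was thus lower in DKOITD mice by the test across genes, with all 5 mice below the lowest WT mouse.

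That call is close to the threshold. The limma adjusted p was 0.0698 without WT1, and 0.115, 0.0711, 0.0996 and 0.105 without DKOITD48, DKOITD52, DKOITD53e and DKOITD83, with differences of -20.67 to -28.12 points. It was 0.297 without the 3 mice of short territory, 0.227 with no flank and 0.138 with a flank of 1 kb. With peaks of −log10 q of at least 5 the difference shrank to -8.41 points (limma adjusted p = 0.277), and with equal peak numbers in every library to -9.05 points (limma adjusted p = 0.133). The difference kept its direction in each of these fits, and leaving out mice reduces the samples behind the test.

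The peak that remained in all 5 DKOITD mice lay beside the neighbouring gene Top3b. DKOITD185 also had a peak of 962 bp between Igll1 and Vpreb1. A segment of 519 bp (chromosome 16, 16870725 to 16871243) was covered in all 8 mice and lies within 1 kb of Top3b. The peaks over it were strong by the authors' own scores, with a −log10 q of 9.29 to 38.8. The other peaks of the Vpreb1 window had scores of 2.195 to 3.80. When bases within 1 kb of any other gene were left out, Vpreb1 kept 67.6%, 31.0% and 23.0% in the WT mice. It kept 2.34% (0.111 kb) in DKOITD185 and none in the other 4 DKOITD mice. The 962 bp peak of DKOITD185 lay mostly within 1 kb of Igll1 and was left out to that extent. The mean was then 40.6% ± 23.8 (SD, n = 3) against 0.469% ± 1.05 (SD, n = 5), a difference of -40.10 points with a standard error of 8.86 (limma adjusted p = 0.0413). In that form 5.02% of 9508 genes were called lower.

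Igll1 had H3K27ac over 60.6%, 19.5% and 20.9% of its window in WT1, WT2 and WT3, over 7.23% in DKOITD185 and over none in the other 4 DKOITD mice. WT1 was far above the other WT mice, and every WT value was above every DKOITD value. Coverage averaged 33.7% ± 23.3 (SD, n = 3) for WT and 1.45% ± 3.23 (SD, n = 5) for DKOITD. The difference of -32.21 points had a standard error of 8.54 and did not pass the test across all genes (limma adjusted p = 0.0740, exact permutation p = 0.0357). Without WT1 the difference was -18.74 points and passed (limma adjusted p = 0.00744). Without WT2 it also passed, at -39.28 points (limma adjusted p = 0.0371). Without WT3 (limma adjusted p = 0.0831), or without any single DKOITD mouse (0.0823 to 0.164), the difference did not pass. Without the 3 mice of short territory it was -30.04 points (limma adjusted p = 0.380). With equal peak numbers in every library it was -2.91 points, and with peaks of −log10 q of at least 5 no coverage was left in any mouse, so neither setting gave a test.

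The Igll1 peaks were weak by the authors' scores. The 10 peaks in the 4 mice had a −log10 q of 1.404 to 3.80 and none reached 5. The 3 WT mice shared 1.15 kb of covered bases. Coverage of Igll1 nevertheless ranked between the 97.5 and 99.9 percentiles of all genes in the WT libraries, and that of Vpreb1 between 98.6 and 99.8. The Vpreb1 ranks include the peak beside Top3b. In DKOITD mice, where that peak was most of its coverage, Vpreb1 still ranked between 82.7 and 96.5. Both windows are short, so a peak of given length is a large percent of them. DKOITD52 had 17039 H3K27ac peaks over 20.4 Mb, more than the 14326 peaks over 16.8 Mb of WT2, and no peak over Igll1. DKOITD48, DKOITD53e and DKOITD83, also at 0, had short territories. The part of territory in these zeros was not tested.

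Taken as a single stretch from the lower edge of the Igll1 window to 1 kb before Top3b (chromosome 16, 16855671 to 16869721, 14.1 kb, chosen after the values were seen and so given without a test), H3K27ac covered 8.40, 3.23 and 2.78 kb in WT1, WT2 and WT3. It covered 0.962 kb in DKOITD185 and none in the other 4 DKOITD mice. This gave 4.80 kb ± 3.12 (SD, n = 3) for WT and 0.192 kb ± 0.430 (SD, n = 5) for DKOITD. No H3K27me3 was called over it in any of the 8 mice, so in DKOITD48, DKOITD52, DKOITD53e and DKOITD83 it carried neither mark.

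**Figure D3:**
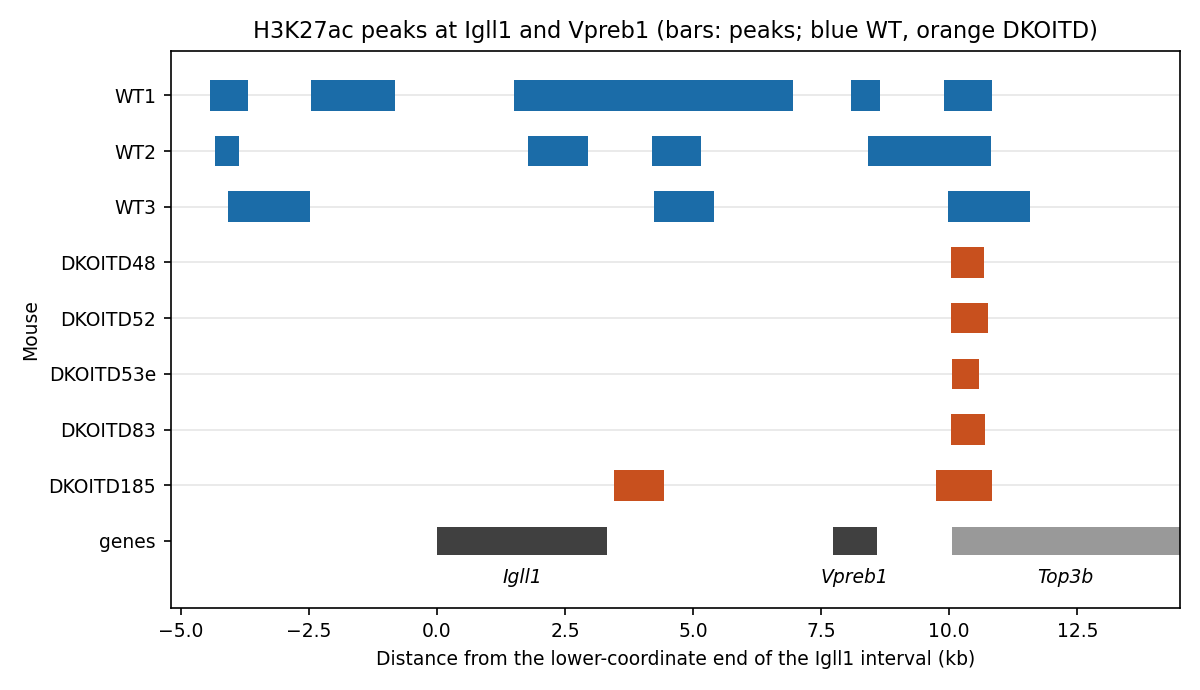
H3K27ac peaks in each mouse over the Igll1 and Vpreb1 locus, by distance in kb from the lower-coordinate end of Igll1, with the genes drawn below. The 3 WT mice have several peaks below and between the genes, in WT1 and WT2 also over them, DKOITD185 has 1 short peak between them, and the peak beside Top3b is present in all 8 mice.

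Cd79a and Cd79b encode Igα and Igβ, the chains through which the pre-B and B-cell receptors signal. Cd79a spans chromosome 7, 24897497 to 24901858, and had H3K27ac in all 8 mice, as 37.3% of all genes did. It covered 25.1%, 26.7% and 6.48% of the window in WT1, WT2 and WT3. In DKOITD48, DKOITD52, DKOITD53e, DKOITD83 and DKOITD185 it covered 5.68%, 21.0%, 2.66%, 5.42% and 23.2%. The genotypes overlap: WT1 and WT2 are the highest of the 8 mice, DKOITD185 and DKOITD52 come next, and WT3 lies among the other DKOITD mice. The difference of -7.82 points had a standard error of 6.48 (limma adjusted p = 0.465, exact permutation p = 0.179), and without the 3 mice of short territory it was 2.68 points with DKOITD mice higher.

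Much of this H3K27ac lay at Arhgef1, a neighbouring gene whose interval lies 1.13 kb from Cd79a. All 8 mice had a peak there, and a segment of 382 bp (chromosome 7, 24902854 to 24903235) was common to them. Only WT1 and WT2 had a further peak over Cd79a away from Arhgef1, with a −log10 q of 1.44 and 2.12. Without bases near other genes, Cd79a kept 10.1%, 18.3% and 0% in the WT mice and 0%, 2.28%, 0%, 0% and 6.17% in the DKOITD mice (limma adjusted p = 0.242). In length, the bases kept were 0.954 of 3.60 kb in WT1, 1.74 of 3.83 kb in WT2 and 0 of 0.930 kb in WT3. The coverage counted for Cd79a was therefore mostly near the neighbour, in WT as well as in DKOITD mice.

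Cd79b spans chromosome 11, 106311341 to 106314562. H3K27ac covered 1.51 kb and 0.439 kb in WT1 and WT2 and none in WT3. It covered 0.450 kb in DKOITD48, 0.271 kb in DKOITD52, 0.258 kb in DKOITD53e and none in DKOITD83 and DKOITD185. All 5 peaks were weak (−log10 q of 1.17 to 1.89) and had bases in common near the higher-coordinate gene end. Both genotypes include mice with and without the peak, and only WT1 is apart. On average it was 4.91% ± 5.88 (SD, n = 3) for WT and 1.48% ± 1.47 (SD, n = 5) for DKOITD (limma adjusted p = 0.369, exact permutation p = 0.429). Without WT1 the difference of -3.43 points shrank to -0.18 points (limma adjusted p = 0.963).

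Vpreb3 encodes a protein related to Vpreb1 that binds immunoglobulin light chains in B-cell precursors. It lies on chromosome 10, 75943024 to 75949657. Neither mark reached 200 bp in any mouse, as at 20.5% of all genes, and 56 bp of H3K27ac in DKOITD48 was the whole of its coverage. It was the 1 gene of the 9 that could not be tested for H3K27ac.

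Blnk encodes the adaptor that links the B-cell receptor and Syk to phospholipase C. Its gene spans chromosome 19, 40928927 to 40994221. H3K27ac covered 2.13 kb in WT1, 0.596 kb in DKOITD48 and 1.303 kb in DKOITD185, at the higher-coordinate end in each, and none in the other 5 mice. Neither genotype had it in most mice (limma adjusted p = 0.710, exact permutation p = 0.750), and the sign of the difference turned without WT1. DKOITD185 also had 218 bp of H3K27me3, the only H3K27me3 outside Pax5 and Ebf1 among the 9 genes.

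Set against each other within each mouse, the surface and receptor genes had more H3K27ac than the regulators in all 8 mice over the whole window. The mean coverage of the 5 surface and receptor genes minus that of the 3 regulators was 27.1, 15.1 and 10.6 points in WT1, WT2 and WT3. It was 3.06, 5.96, 1.88, 2.30 and 9.68 points in DKOITD48, DKOITD52, DKOITD53e, DKOITD83 and DKOITD185. The lowest WT mouse was above the highest DKOITD mouse, though by less than 1 SD of either genotype. The means were 17.6 ± 8.53 (SD, n = 3) and 4.58 ± 3.27 (SD, n = 5). No test is given for this score, since the genes were chosen with earlier results known. Without bases near other genes the values were 28.6, 13.8 and 9.32 points in WT mice. They were 0.882, 0.986, 0.506, 0 and 3.10 points in the DKOITD mice, which widens the gap between genotypes. Most of the contrast in DKOITD mice thus lay near other genes, and none was left in DKOITD83. Peaks in the stretch shared by the Igll1 and Vpreb1 windows count for both genes. Regulator windows are long, at 36.4 to 400 kb, and those of the surface and receptor genes are 10.9 to 16.6 kb, so a peak of given length is a larger percent of the latter.

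For H3K27me3 the sign of the contrast was the opposite in every mouse, because no surface or receptor gene had the mark. The surface and receptor mean minus the regulator mean was -4.85, -2.66 and -4.24 points in the WT mice and -1.84, -5.63, -1.23, -1.70 and -8.01 points in the DKOITD mice. The means of -3.92 ± 1.13 (SD, n = 3) and -3.68 ± 2.995 (SD, n = 5) differed by less than either SD.

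**Figure D4:**
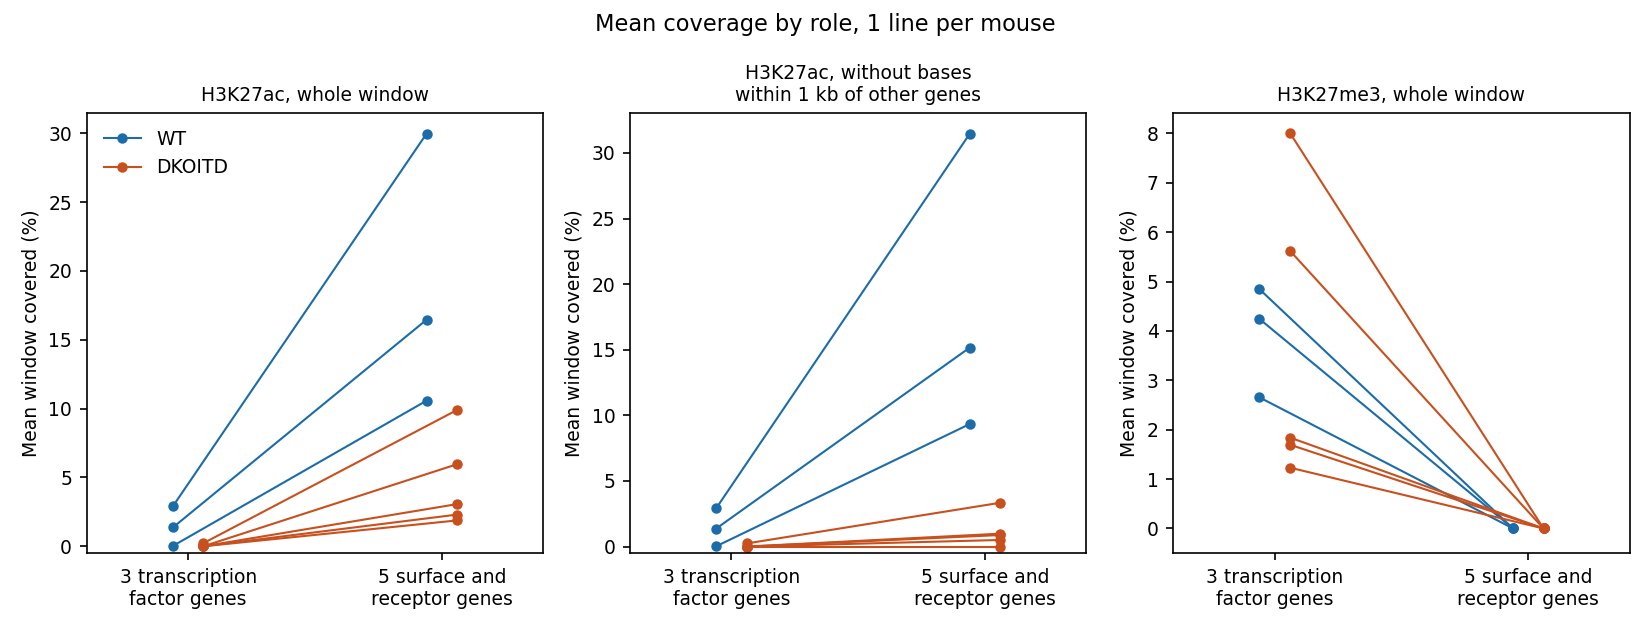
Mean percent of the window covered in each mouse for the 3 transcription regulators and the 5 surface and receptor genes: H3K27ac over the whole window, H3K27ac without bases within 1 kb of other genes, and H3K27me3. Lines join the values of 1 mouse. Over the whole window, H3K27ac is higher over the surface and receptor genes in all 8 mice, and H3K27me3 is higher over the regulators in all 8.

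Counted as marked or not, H3K27ac was present at 8, 7 and 4 of the 9 genes in WT1, WT2 and WT3 and at 4, 3, 3, 2 and 5 of them in DKOITD48, DKOITD52, DKOITD53e, DKOITD83 and DKOITD185. The ranges overlap, since WT3 equals DKOITD48 and is below DKOITD185. Pax5 and Ebf1 each carried H3K27me3 alone in 5 mice and both marks in 3. H3K27me3 in all 8 mice with H3K27ac in at least 1, as at these 2 genes, was seen at 2.59% of all genes. The windows of Cd79a and Vpreb1 carried H3K27ac in all 8 mice with H3K27me3 in none, as 28.3% of all genes did. Without bases near other genes, H3K27ac marked Vpreb1 in 3 WT and 0 DKOITD mice. In that form it marked Cd79a in 2 WT and 2 DKOITD mice. Igll1 carried H3K27ac in 4 mice and neither mark in 4.

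By mean H3K27ac coverage in WT mice the genes ranked Vpreb1, Igll1, Cd79a, Cd79b, Pou2af1, Blnk, Ebf1, Pax5 and Vpreb3. Vpreb1 and Igll1 differed by less than either SD, as did Cd79b and Pou2af1. The gap of 14.3 points from Igll1 to Cd79a was below the SD of Igll1 (23.3) and above that of Cd79a (11.2). In DKOITD mice the order was led by Cd79a at 11.6% ± 9.69 (SD, n = 5) and Vpreb1 at 8.53%, followed by Cd79b at 1.48% and Igll1 at 1.45%. The Cd79a and Vpreb1 coverage in those mice was mostly the peaks near Arhgef1 and Top3b. Cd79a coverage lay mostly near Arhgef1 in WT mice as well.

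Other B-lineage genes were read from lists. Of 16 other B-cell surface genes, 13 were tested for H3K27ac, 2 were called lower and 0 higher in DKOITD mice, with a median difference of -0.51 points over those tested. Cd24a, the heat-stable antigen of B-cell precursors that many other blood cells also carry, had H3K27ac over 29.8%, 26.2% and 22.8% of its window in WT mice. The DKOITD mice had 3.57%, 9.23%, 0%, 0% and 9.90% there, all below the WT mice. The mean fell from 26.3% ± 3.50 (SD, n = 3) to 4.54% ± 4.82 (SD, n = 5; limma adjusted p = 0.00945). Bst1, the stromal antigen BP-3, fell from 3.47% ± 1.25 to 0.464% ± 0.735 (limma adjusted p = 0.0379). In the same list Il7r, the interleukin-7 receptor on which B-cell precursors depend, had no H3K27ac in any mouse. Of the 4 genes of this list tested for H3K27me3, limma called 0 (2 lower and 1 higher before adjustment, at p under 0.05). Cd24a had no H3K27me3 in WT mice and 10.9%, 23.1%, 7.21%, 0% and 21.1% in the DKOITD mice (limma adjusted p = 0.529). It met the minimum of 2 mice through DKOITD mice alone. Cd38, an ectoenzyme of lymphocytes, was marked by H3K27me3 in every WT mouse and no DKOITD mouse, as 0.518% of all genes were (limma adjusted p = 0.163).

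Of 12 genes of B-cell receptor signalling, 11 were tested for H3K27ac and 0 were called by limma (1 lower before adjustment, at p under 0.05), with 10 marked in each WT mouse and 8 to 11 in DKOITD mice. Of 14 other B-lineage transcription factors, 13 were tested and 0 were called by limma (2 lower and 1 higher before adjustment), with 10 to 12 marked in WT and 9 to 13 in DKOITD mice. The median differences were -1.14 points for the signalling genes and -2.15 points for the factors. H3K27me3 lay over 9 to 10 of the 14 factors in WT and 3 to 10 in DKOITD mice, 3 of them in all 8 mice, and limma called 0 of the 10 tested, with 0 also before adjustment. Of the 3 recombination genes, Rag1 and Dntt had no H3K27ac in any mouse. Rag2 had it in 3 WT and 3 DKOITD mice. Its means were 5.80% ± 1.39 (SD, n = 3) and 1.95% ± 2.03 (SD, n = 5; limma adjusted p = 0.125, under 0.05 before adjustment). Rag1 and Rag2 had no H3K27me3, and Dntt had it in WT1 alone, over 1.95% of the window.

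Markers of other cell types moved with genotype as well. Of 12 granulocyte genes, all 12 were tested for H3K27ac and 7 were called lower in DKOITD mice: 9 to 12 were marked in WT and 0 to 7 in DKOITD mice, with summed coverage of 33.4 to 60.6 kb and 0 to 10.7 kb. Among them Ngp, a neutrophil granule gene, went from 61.8% ± 8.67 (SD, n = 3) to 2.93% ± 6.54 (SD, n = 5; limma adjusted p = 0.00292). S100a9, S100a8 and Ctsg were also called lower. Of 12 stem and progenitor genes, 11 were tested and 2, Tal1 and Hlf, were called lower, with 9 to 11 marked in WT and 3 to 7 in DKOITD mice and 22.9 to 50.4 kb against 2.85 to 32.3 kb. Car2 was called lower among 6 erythroid genes tested of 12, with 5.73 to 13.2 kb against 1.58 to 6.25 kb. S100a8, Hlf and Car2 had no H3K27ac in any DKOITD mouse. They met the minimum of 2 mice with coverage through WT mice alone.

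Of 12 dendritic and antigen-presentation genes, 11 were tested for H3K27ac, and 3 were called higher in DKOITD mice with 0 called lower. They were the class II genes H2-Ab1 and H2-Aa and the invariant chain gene Cd74, which B cells also express. H2-Ab1 went from 2.72% ± 2.49 (SD, n = 3) to 37.6% ± 7.09 (SD, n = 5; limma adjusted p = 0.00825). H2-Aa went from 0 in all 3 WT mice to 29.8% ± 11.4 (SD, n = 5; limma adjusted p = 0.0354). H2-Aa met the minimum of 2 mice with coverage through DKOITD mice alone. Cd74 went from 1.10% ± 1.91 (SD, n = 3) to 26.7% ± 3.59 (SD, n = 5; limma adjusted p = 0.00462). Summed coverage of the list was 12.4 to 23.7 kb in WT and 21.4 to 58.1 kb in DKOITD mice. Irf8, a factor of dendritic cells, was likewise marked by H3K27me3 in every WT mouse and no DKOITD mouse (limma adjusted p = 0.163). For H3K27me3, Irf8 and Cd38 met the minimum of 2 mice through WT mice alone.

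For H3K27ac, T-lineage genes showed 0 calls by limma among 4 tested of 12 (2 lower before adjustment). By that mark 3 to 4 of them were marked in WT and 2 to 4 in DKOITD mice, at 3.26 to 6.68 kb and 1.36 to 4.38 kb. Cd3e, Cd8a, Tcf7, Bcl11b, Gata3, Zap70 and Lat had no H3K27ac in any mouse. H3K27me3, however, lay over Tcf7, Bcl11b and Gata3 in all 8 mice. Plasma-cell genes gave 0 H3K27ac calls by limma among 3 tested of 6, and 0 before adjustment. Sdc1 and Jchain had no H3K27ac in any mouse, while Sdc1 had H3K27me3 in 3 WT and 4 DKOITD mice. The part of any of these cell types in the lower H3K27ac of Vpreb1 and Igll1 was not tested.

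The genes most like each of the 9 over all 16 libraries, by the smallest mean absolute difference in percent covered, were sought for the 4 genes with coverage in at least 6 libraries. For Pax5 they were Map3k21, at a mean difference of 0.660 points, and Fibcd1, at 0.669 points. For Ebf1 they were Afap1l2, at 0.240 points, and Prtg, at 0.247 points. None of these 4 had any H3K27ac, and H3K27me3 was present over them in both genotypes. For Vpreb1 they were B3gnt2, at 1.95 points, and Agpat2, at 1.98 points, with H3K27ac over 42.2% and 35.0% of the window in WT and 11.7% and 5.61% in DKOITD mice. For Cd79a they were Kcnn4, at 1.68 points, and Nfkbil1, at 1.69 points. These likenesses are descriptions over libraries that differ in depth and territory, with the genes compared read from the same libraries.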

How the data were processed

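H3K27ac and H3K27me3 ChIP-seq was measured in 3 WT and 5 DKOITD mice. The submitters' processing notes name the build mm10 for mouse, Bowtie2 2.2.5 and MACS2 2.0.10. Each library had its own broad peaks, which the authors, per the file headers, called with MACS 2.0.10.20131216 at a q cutoff of 0.05, WT libraries against the input of WT1 and DKOITD libraries against that of DKOITD48. The lowest −log10 q in the deposited lists was 1.00 to 1.07, weaker than that cutoff. Each peak carries the authors' pileup signal, −log10 p-value, −log10 q-value and fold enrichment, a ratio to local background. These were used only to describe or filter peaks. Drosophila spike-in reads were not used, per the labels, so no absolute level is known.

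Overlapping peaks were merged, and the percent of each window covered was computed for 21631 protein-coding genes. Positions of genes are those of a RefSeq table for GRCm38.p6, the assembly behind mm10, which gives no strand, so gene ends are named by coordinate. limma 3.58.1 (R 4.3.3, eBayes with trend) compared genotypes over genes with coverage in at least 2 mice, and exact permutation tests (scipy 1.17.1, two-sided, 56 assignments, smallest p 0.0357) were run for each of the 9 genes alone. The scripts were tested on simulated data. A gene without a peak may still carry the mark, since weak peaks are missed at low depth or enrichment. Labels give no batch. The alternatives were other flanks, bases near other genes removed, stricter or equal numbers of peaks, other scales and filters, and mice left out.

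The 9 genes and the lists (120 symbols, all in the table) were chosen with earlier results of these data known. All 9 are named. Other listed genes are named when called by limma or marked in every mouse of 1 genotype and none of the other, at most 4 per list and mark by size of difference. Genes named as at 0 for a mark in every mouse were picked with those values in view. The 3 recombination genes are all named. The human libraries were not used here, and no sequence is printed.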

Additional observations from a re-analysis of the deposited data

Results flagged for a closer look

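In 5 of 10 groups of DKOITD values tested (1 gene and 1 mark each), a single mouse stood far from the other 4 by Dixon's criterion for 5 samples, whose 95% critical value is 0.71. Chance flags about 1 in 20 groups of normally distributed values. That rate does not hold here, because where the other 4 mice are at 0 any coverage in the fifth gives the highest possible ratio, as in 4 of the 5 cases. DKOITD185 was the high mouse in 4 of the 5. For H3K27ac it had 0.670% of the Pax5 window, with 0 in the other 4 DKOITD mice. It had 7.23% of the Igll1 window, again with 0 in the others, and 19.1% of the Vpreb1 window, where the next DKOITD mouse had 6.79%. For H3K27me3 it had 0.290% of the Blnk window, with 0 in the others. DKOITD185 also had the longest territory of both marks among DKOITD mice, 23.8 Mb of H3K27ac and 40.5 Mb of H3K27me3. The part of that territory in these values was not tested. The remaining case was Vpreb3, where DKOITD48 had H3K27ac over 0.337% of the window and the other 4 DKOITD mice had none.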

How the results depend on the processing

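No paired analysis was possible because the WT and DKOITD mice share no replicate number. The number of the 9 genes called for H3K27ac (1, Vpreb1) was 0 with no flank, with a 1 kb flank, with peaks of −log10 q of at least 5, with equal peak numbers (8825 per library), without the 3 mice of short territory, and when genes with coverage in only 1 mouse were kept. It was 3 (Ebf1, Igll1, Vpreb1) on log2(kb + 0.1), where 323 of all 12552 genes were called lower and 103 higher. Ebf1 was tested through WT coverage alone, and Vpreb1 and Igll1 share part of their windows. After centring on the library mean the number was 2 (Igll1, Vpreb1), beside 619 lower and 324 higher over all genes. It was 0 to 2 when each mouse was left out. For H3K27me3 the number was 0 in every setting run. Over all genes, H3K27ac calls lower in DKOITD mice, 484 as reported, ranged from 32 without the short-territory mice to 1080 without WT2, and H3K27me3 calls, 0 as reported, from 0 to 242 lower (without WT2) and 168 higher (without the short-territory mice). The DKOITD minus WT role contrast for H3K27ac was -2.39 with stronger peaks, -2.80 with equal numbers, and -16.51 to -8.25 with a mouse left out. That for genes marked by H3K27ac was -0.20, -0.13, and -4.1 to -2.1. The role contrast for H3K27me3 turned to -1.10 with stronger peaks, -0.37 with equal numbers (1891), and -2.91 without the short-territory mice, and ranged from -0.38 to 1.32 with a mouse left out. Genes marked by H3K27me3 differed by 0.867 with stronger peaks and -0.20 with equal numbers, and by 0 to 0.25 with a mouse left out. Single genes turned sign as follows: Pax5 H3K27ac 0.0816 with no flank and 0.16 without the short-territory mice (-0.18 to 0.0415 with a mouse left out), Cd79a H3K27ac 2.68 without those mice, Cd79b H3K27ac 0.39 with equal numbers, and Blnk H3K27ac -0.91 to 0.50 with a mouse left out. Pax5 H3K27me3 was 0.24 away from other genes, 2.32 with stronger peaks, 0.0594 with equal numbers and 8.0 without the short-territory mice (-3.00 to 1.36 with a mouse left out). Ebf1 H3K27me3 was 0.97, 1.05 and 0.71 in the last 3 settings (-1.45 to 0.16 with a mouse left out). Vpreb1 H3K27ac stayed negative in every setting but shrank to -8.41 with stronger peaks and -9.05 with equal numbers, and Igll1 H3K27ac shrank to -2.91 with equal numbers and to 0 with stronger peaks. Settings with stronger or equal peaks leave only 2 of the 9 genes to test, and those without mice have fewer samples. The cause of the changes between settings was not tested. Of the values for single genes, 116 kept a direction and their side of the threshold, 104 were at 0 in that setting and so had no direction, 10 lost the threshold, 3 gained it and 19 turned.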
